A study of Sus scrofa with 57 samples.

Results

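The regions described here are stretches of the pig genome inside gene loci that gave fewer captured methylated DNA fragments in adipocytes of obese pigs than in those of lean pigs. They are 1752 of the 7401 regions in the authors' deposited mDNAcap comparison, chosen by 4 conditions on the deposited values: a place on chromosomes 1 to 18, a mean of both group means under 40 normalized counts, a lower mean in obese pigs, and an overlap of at least 1 base with a gene locus. They are called losing regions below, and the 1367 gene loci that they touch are called carrier genes. The pigs were F2 animals of a Duroc by Göttingen minipig intercross, picked from the lean and obese ends of the UNIK population. That population as a whole came from the obesity-prone Göttingen minipig and lean Duroc and Yorkshire production pigs. Both groups were kept in the same environment with free access to food. Mature adipocytes were floated from collagenase-digested retroperitoneal fat, so each library is a pool of the floated cells of 1 animal. Of the 23 mDNAcap libraries, 1 labelled obese is in neither list of the comparison, which holds 11 obese libraries from 7 boars and 4 sows and 11 lean libraries from 8 boars and 3 sows, and 1 pig of the lean list carries the label obese, while the study counts it as lean. Its values could not be left out, since the 11 numbers given per group and region carry no animal names. RNAseq covered 5 lean and 5 obese boars, and RRBS, which reads bisulfite-converted DNA at CCGG sites, was deposited as means of the groups.

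DNA methylation in mammals is mostly found on cytosines of CpG pairs and covers much of the body of genes, where it lies in introns and exons alike, whereas promoters rich in CpG pairs are usually free of it. Enhancers inside introns can lose methylation when they are in use. The kit used for mDNAcap binds methylated CpG pairs with a protein domain, so the count of a region depends on how many methylated CpG pairs its fragments hold and not on the methylated share of the cells alone. A normalized count is the number of reads in a region divided by 1 constant per library. In cells taken as a bulk, fewer cells with a methylated copy and fewer methylated CpG pairs per copy cannot be told apart.

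The losing regions were short and of low level. Their length ran from 1000 bases, the window of the authors' search, to 2800 bases, with a median of 1100, and 728 of them (41.6%) were a single window. The mean normalized count had a median of 16.9 in lean pigs (9.79 to 51.0 over the regions) and of 10.185 in obese pigs (3.69 to 33.2). Lean over obese, the median ratio was 1.66-fold, the lowest 1.32-fold and the highest 3.44-fold, and 51 regions (2.91%) fell by at least 2-fold. As the rule was a fall, these values describe the choice and have no test. The size of the fall was also tied to the level by the authors' threshold, a G-test p-value of at most 0.0001 on pooled reads. The 175 regions with a mean under 10 had a median ratio of 1.83-fold and none under 1.72-fold, and the 222 regions with a mean of 20 or more had a median of 1.49-fold. A median of 151 reads over all obese libraries and of 235 over all lean libraries stood behind a region, and the fewest were 51 and 139.

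**Figure D1:**
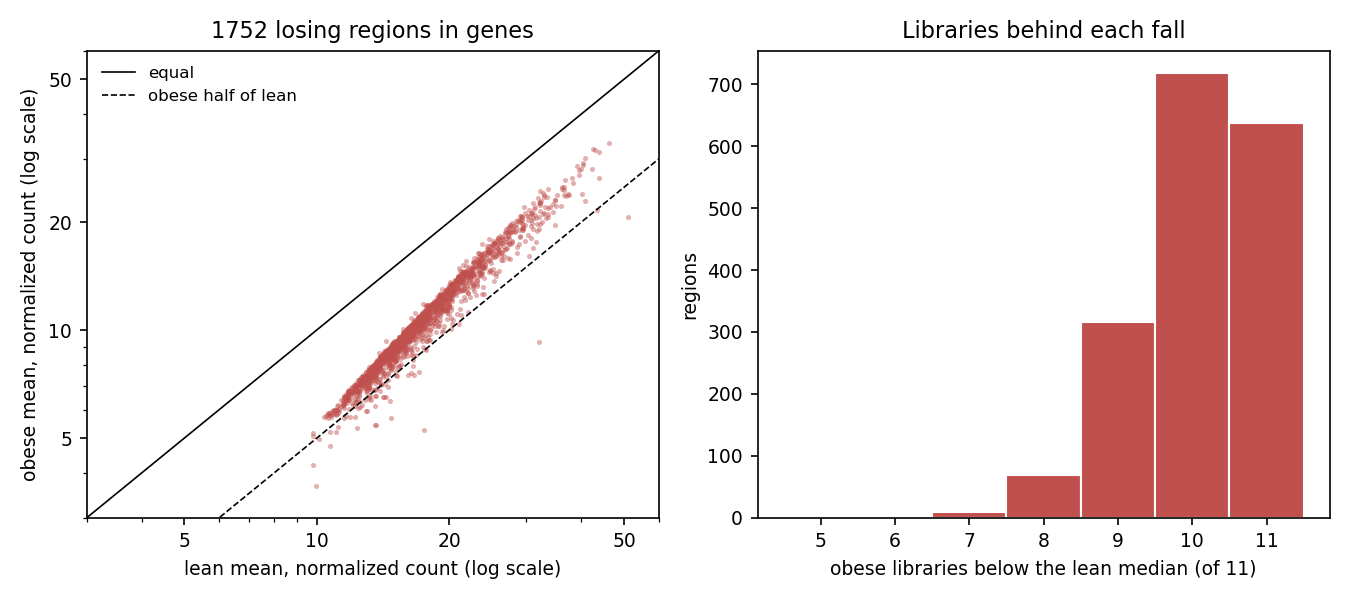
Left, mean normalized count of each of the 1752 losing regions in lean pigs (x axis, log scale) and in obese pigs (y axis, log scale), with lines for equal values and for a 2-fold fall. Right, number of losing regions (y axis) by how many of the 11 obese libraries lay below the median of the lean libraries (x axis), where 638 regions had all 11 and 718 had 10.

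Most obese libraries shared in the fall of a given region. In 1672 regions (95.4%) at least 9 of the 11 obese libraries lay below the median of the lean libraries, and in 638 all of them did. The same counts chose the regions for a fall, so this sharing was favoured by the choice and has no test. The groups still overlapped nearly everywhere: all obese libraries were below all lean libraries in 4 of the 1752 losing regions, where 0.122% of the 7401 deposited regions were so separated in this direction. Those 7401 include regions higher in obese pigs, which cannot be separated this way, so the share over falling regions is larger. The median coefficient of variation between libraries was 43.5% in obese and 28.8% in lean pigs. Part of this spread is counting, as 1 read was worth 2.94 normalized counts in the shallowest obese library and 2.63 in the shallowest lean library, against 0.360 and 0.253 in the deepest. In the shallowest obese library 264 of the losing regions held no read, and 6 further obese libraries were at 0 in 110, 38, 14, 14, 2 and 1 of them, while no lean library was at 0 in any. The regions were chosen for higher counts in lean pigs, which left little room for a lean value of 0.

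Over all losing regions, the mean normalized count per library was 11.2 ± 2.64 in obese pigs and 18.3 ± 1.97 in lean pigs (SD, n = 11 each). The obese libraries ran from 7.48 over a median of 11.7 to 16.3, and the lean libraries from 15.4 over 17.8 to 21.1. The groups overlapped in a single obese library, the ninth of the list, which with 16.3 stood above the 2 lowest lean libraries and above the lean median in 625 of the losing regions. Without it the median ratio was 1.74-fold, all 1752 regions were still lower in obese pigs, and 16 in place of 4 had groups that did not overlap. The same library had the highest genome-wide level of all 22, at 2.72 normalized reads per bin of 1000 bases. This genome-wide level, the mean read count per bin over the constant of the library, averaged 1.59 ± 0.417 in obese and 1.94 ± 0.351 in lean pigs, a difference with p = 0.0460 in a two-sided permutation test over the libraries. Its part in the lower counts of the losing regions was not tested. With each library rescaled to the same genome-wide level, the same 1752 regions were lower in obese pigs, at a median log2 ratio of -0.46 in place of -0.73, beside -0.38 in place of -0.66 over all deposited regions. With the median of ratios over all regions as the scale the values were -0.43 and -0.36, again with the same 1752 regions lower. A fall was the rule of choice, and the smallest among the losing regions was -0.40 on the log2 scale. The counts of regions still lower were thus largely set by the choice, also without the ninth library.

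**Figure D2:**
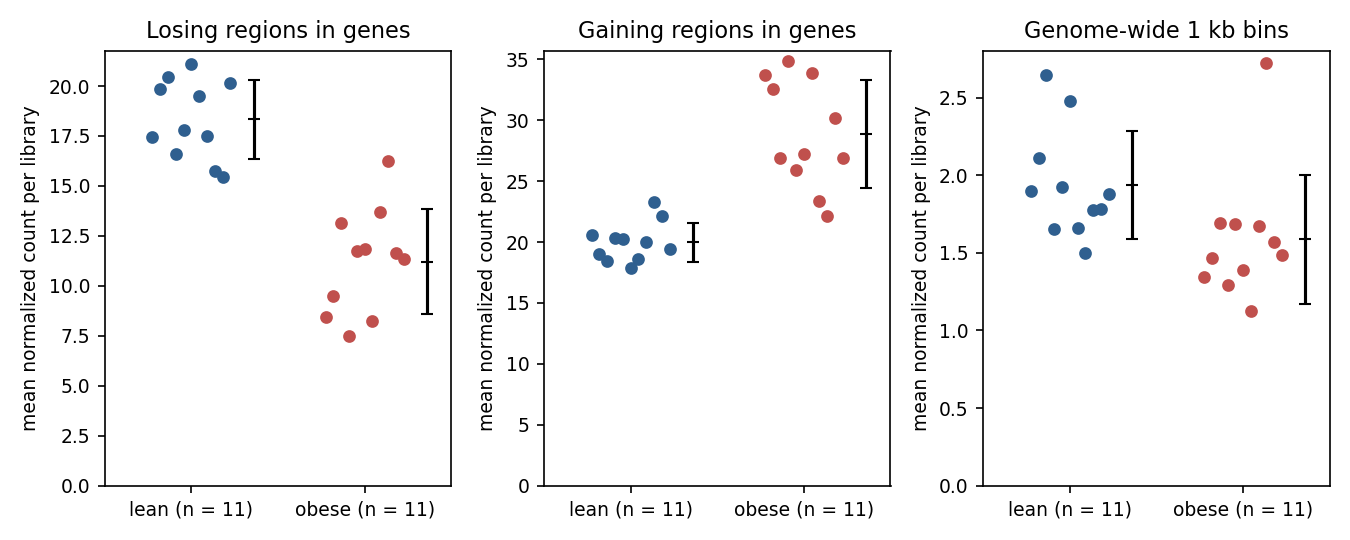
Mean normalized count of each library (points, y axis) over the 1752 losing regions in genes, over the 1093 regions in genes that were higher in obese pigs, and over bins of 1000 bases genome-wide, for 11 lean (blue) and 11 obese (red) libraries, with the mean and SD of the group beside them. The highest obese library in the left panel, at 16.3, is also the highest in the right panel, at 2.72, and the lowest obese library in the middle panel, at 22.2.

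Regions in genes that were higher in obese pigs, by the same limits on chromosome and level, numbered 1093. Across the libraries of a group the mean over the losing regions ran against the mean over these gaining regions. Pearson's r was -0.95 and Spearman's rho -0.94 over the 11 obese libraries, and -0.91 and -0.94 over the 11 lean libraries. Without the 2 libraries farthest from the median of the gaining regions, r was -0.92 in obese and -0.91 in lean pigs. With the genome-wide level, r was 0.85 and rho 0.86 over the obese libraries, and r was 0.84 without the 2 farthest. Over the lean libraries r was 0.66 and rho 0.65, and r was 0.36 without the 2 farthest, so this relation rested on them. These 4 relations are a description with no test, since the counts behind them chose both sets of regions and share 1 constant per library. The runs named in the authors' file lists were balanced, with 5 libraries of each group in the first and 6 of each in the second, and since values carry no animal names, no value within a run could be given.

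The losing regions lay in long genes, most of them more than 5000 bases from an end. The median carrier locus spanned 58191 bases against 9628 over all 21691 loci of chromosomes 1 to 18 and 27817 for the 825 loci with gaining regions. Loci over 100000 bases were 413 of the carrier genes (30.2%) and 1533 of all loci (7.07%). A longer locus has more room for a region, so the length of carrier genes follows in part from the rule. Inside their loci, 1657 of the losing regions were wholly enclosed and 95 (5.42%) ran across an end, and of the gaining regions 124 (11.3%) did. Another 325 losing regions (18.6%) and 404 gaining regions (37.0%) lay inside within 5000 bases of an end. Of the enclosed regions, the median distance to the nearer end was 16622 bases for losing and 7421 bases for gaining regions. The loci around losing regions were also longer, with a median over the regions of 77212.5 bases against 38569 for gaining regions. A longer locus allows a larger distance to its ends, so a place deeper in proportion to the locus is not shown. These differences were not tested. The tables used here give no strand and no exons for Sscrofa10.2, the build of the files, so neither the promoter end nor introns could be set apart.

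By chromosome, 164 losing regions lay on chromosome 6, 145 on 7 and 133 on 1, and 46 and 45 on chromosomes 15 and 16. Per megabase of gene loci, chromosome 11 held most, at 6.82, followed by chromosome 10 at 5.47 and chromosome 17 at 4.25. The fewest were found on chromosomes 15, at 1.41, 13, at 1.64, and 1, at 1.76. Chromosomes 12 and 15 were those with more gaining than losing regions, at 115 against 82 and 53 against 46.

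Of the carrier genes, 1085 held a single losing region, 282 held at least 2 and 13 at least 5. In 159 genes, 11.6% of the carriers and 19.3% of the genes with gaining regions, both kinds were present. Of all 21691 loci, 6.30% carried a losing region and 825 loci a gaining region. Both kinds of loci had a longer median length than all loci, as given above, and their overlap was not tested. The gene with most was ARHGAP26, which makes a GTPase-activating protein that takes part in endocytosis, with 10 losing regions in 423273 bases (chr2:150495711-150918983). Next came PARK2, the ubiquitin ligase parkin, with 9 in 615460 bases (chr1:7197034-7812493). VPS13D, a lipid transfer protein needed for mitochondria, and PARN, a nuclease that trims poly(A) tails, had 7 each, and DSCAM, an adhesion molecule of neurons, had 6. The ratios within a gene ran from 1.48-fold to 1.79-fold in ARHGAP26, 1.47-fold to 2.02-fold in PARK2, 1.34-fold to 1.81-fold in VPS13D, 1.41-fold to 2.08-fold in PARN and 1.38-fold to 1.78-fold in DSCAM. In ARHGAP26 the losing regions spread over 351700 bases, and the closest began 5300 bases apart. In PARK2 all 9 lay in the right part of the locus, within 281300 bases. ARHGAP26 and VPS13D each also held 1 gaining region, which lay at the right end of the locus, and the other 3 genes held none. Neighbouring regions in a locus share the libraries and are not replicates of each other.

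**Figure D3:**
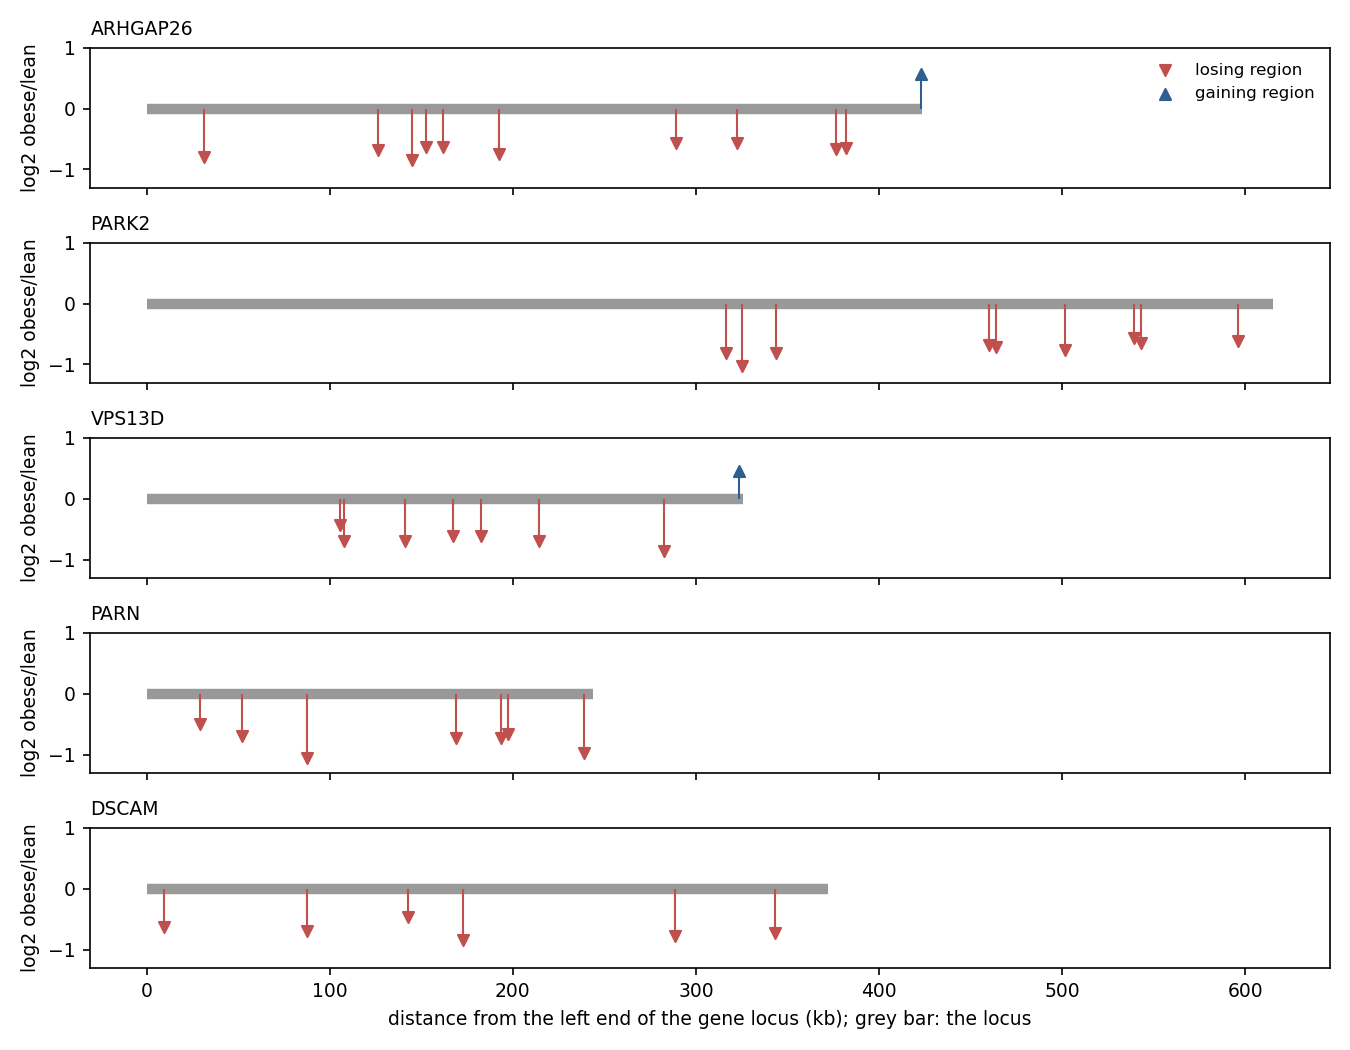
Losing regions (red, pointing down) and gaining regions (blue, pointing up) along the 5 genes with most losing regions, by distance from the left end of the locus (x axis, kilobases) and log2 ratio of obese over lean mean normalized count (y axis), with the locus as a grey bar. The 10 losing regions of ARHGAP26 spread over most of its locus, and those of PARK2 lie in its right part.

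In ARHGAP26, the region with the largest ratio (chr2:150640001-150641100) had a lowest, median and highest count of 7.90, 14.3 and 20.3 in lean and of 2.05, 7.45 and 14.1 in obese libraries. Its region with the highest counts (chr2:150647601-150648800) had 21.1, 34.3 and 41.6 in lean and 14.7, 20.1 and 30.8 in obese libraries. In both, all 11 obese libraries lay below the lean median and 6 below every lean library. In PARK2, the region at chr1:7521501-7522500 had 6.59, 12.1 and 18.2 in lean and 0, 6.48 and 10.96 in obese libraries. In PARN, the region at chr3:29720701-29721700 had 6.75, 10.3 and 20.6 in lean and 1.12, 3.26 and 18.1 in obese libraries, with 8 obese libraries below every lean library and the highest obese library close to the highest lean library.

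Among losing regions with a mean of at least 10, the largest ratios gathered on a short stretch of chromosome 7. Of the 10 with the largest ratio, 4 lay between 82253701 and 82530400 on that chromosome, in loci that have an identifier and no name in the tables used. The largest ratio of all, 3.44-fold, was found at chr7:82529001-82530400 in ENSSSCG00000023790 and ENSSSCG00000027075, where the lean libraries had 9.87, 30.3 and 56.5 as lowest, median and highest and the obese libraries 0, 8.93 and 26.1. Next was chr7:82253701-82255200 in ENSSSCG00000021543, at 3.33-fold, with 9.11, 16.1 and 30.01 in lean and 0, 3.72 and 16.1 in obese libraries. The longest of them, chr7:82522301-82525000, had 29.3, 38.2 and 102 in lean and 4.95, 14.7 and 54.6 in obese libraries, and its lean mean of 51.05 was the highest of any losing region. Lean libraries differed widely among themselves here, and in each of the 3 the highest obese library lay above the lowest lean library.

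The other 6 lay in named and unnamed genes on other chromosomes or far off on chromosome 7. CHUK, a kinase that activates NF-kB, had a ratio of 2.60-fold at chr14:120800701-120802100, with 7.17, 16.1 and 21.3 in lean and 1.12, 4.51 and 14.1 in obese libraries. PAX2, a transcription factor of the developing kidney, had 2.31-fold, DSP, the desmosome protein desmoplakin, 2.22-fold, PIK3R3, a regulatory subunit of phosphoinositide 3-kinase, 2.22-fold, the unnamed ENSSSCG00000029803 2.19-fold, and ZO1, a scaffold of tight junctions, 2.18-fold. In each of these named genes all 11 obese libraries lay below the lean median, and in each at least 6 lay below every lean library.

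The 4 regions without overlap of the groups were in PCNX, FCHSD2, ENSSSCG00000009837 and ATP2B1. In PCNX (chr7:100855401-100856900) the lean libraries had 14.5, 17.4 and 30.3 as lowest, median and highest and the obese libraries 8.14, 11.3 and 13.4, from 255 and 139 reads. In FCHSD2, a protein of actin and endocytosis (chr9:8352301-8354000), they had 19.1, 23.3 and 36.3 against 9.78, 14.8 and 18.2. In ENSSSCG00000009837 (chr14:34878001-34879000) they had 7.90, 10.1 and 14.9 against 2.05, 5.21 and 7.52. ATP2B1, a pump that moves calcium out of the cell (chr5:97608801-97609800), had 10.5, 13.6 and 18.2 against 1.65, 6.52 and 10.4. The gap between the lowest lean and the highest obese library was 1.07, 0.87, 0.38 and 0.13 normalized counts in the order given, and in the fifth region by this measure, in SETD4, the groups overlapped by 0.27. A single read was worth more than the smallest of these gaps in all 22 libraries and more than the largest in 10 of them.

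**Figure D4:**
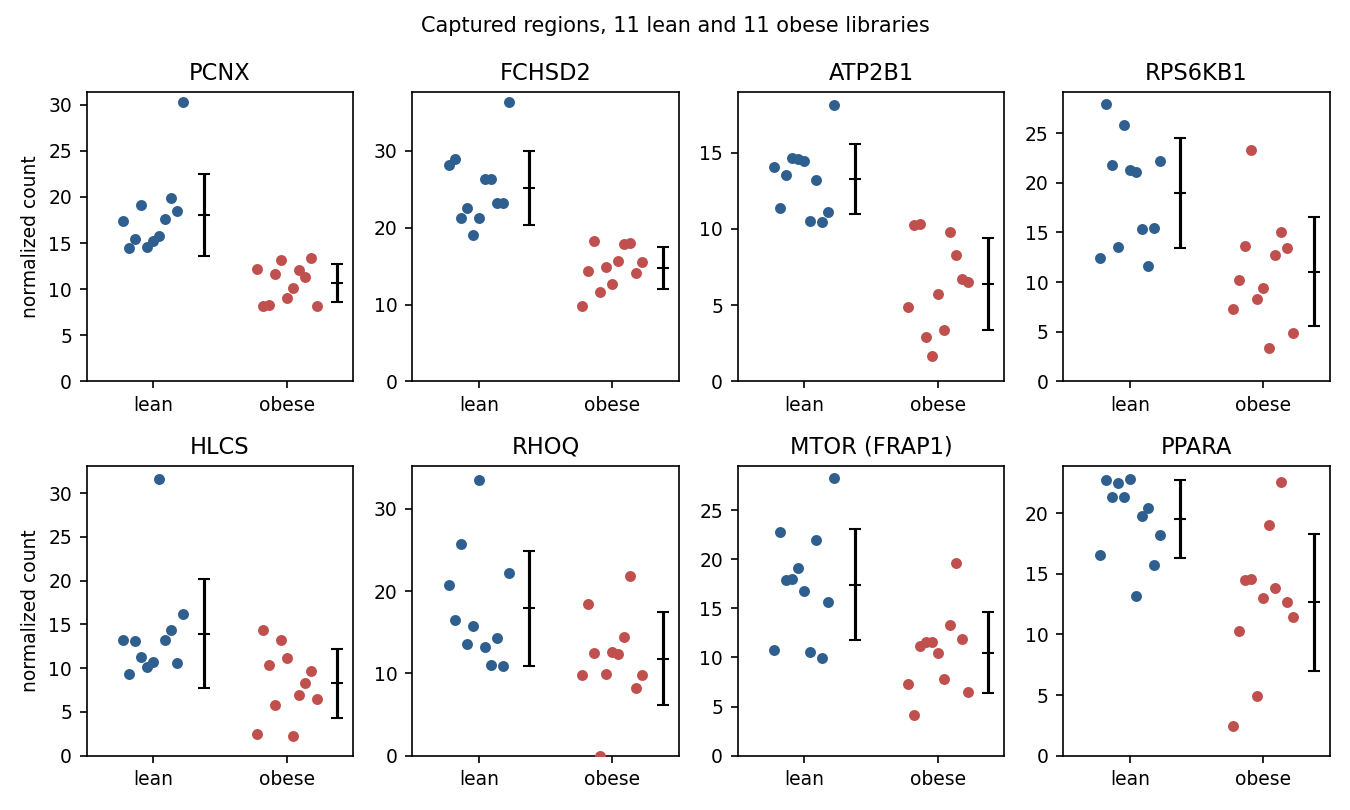
Normalized count (y axis) of 11 lean (blue) and 11 obese (red) libraries, each a point, in 8 losing regions, with the mean and SD of the group beside the points. The groups do not overlap in PCNX, FCHSD2 and ATP2B1 and overlap in RPS6KB1, HLCS, RHOQ, MTOR (FRAP1 in the files) and PPARA.

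The 3 longest losing regions were in EGLN1, an oxygen-sensing prolyl hydroxylase, with 2800 bases and a ratio of 1.84-fold, in ENSSSCG00000027075 on the stretch of chromosome 7 above, with 2700 bases, and in NRP1, a co-receptor of semaphorins and VEGF, with 2700 bases and 1.65-fold. Just under the limit of 40 on the mean stood regions in DMBT1 (33.2 in obese and 46.2 in lean pigs), ENSSSCG00000017576 (31.3 and 43.9) and ABCG2 (31.8 and 42.9). Just over it stood regions in ENSSSCG00000013091 (39.4 and 50.9), ENSSSCG00000016384 (36.8 and 53.8) and ENSSSCG00000028962 (37.8 and 53.8), and 26 falling regions in genes were at or over the limit. Outside gene loci, falling regions under the same limit had a median of 10.18 in obese and 16.8 in lean pigs and a ratio of 1.65-fold, close to the losing regions in genes.

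Gene groups of adipocyte function were then looked up among the carrier genes. Of all loci on chromosomes 1 to 18, 6.30% carried a losing region, and the carriers were longer than the rest, as given above. Insulin binds its receptor at the adipocyte surface and through phosphoinositide 3-kinase drives the glucose transporter to the membrane. Of 36 genes of insulin signalling and glucose uptake with a locus, 7 carried a losing region. RPS6KB1, the ribosomal S6 kinase downstream of MTOR (chr12:37403101-37404300), had a lowest, median and highest count of 11.6, 21.1 and 27.9 in lean and of 3.36, 10.24 and 23.3 in obese libraries, a ratio of 1.72-fold. The receptor gene INSR had a ratio of 1.67-fold. MTOR, a kinase that sets growth to nutrients and is named FRAP1 in the files, held 2 losing regions, at 1.66-fold (chr6:65303301-65304900) and 1.40-fold (chr6:65265801-65267100). In the second of these the obese libraries had 12.3, 27.1 and 32.8 and the lean libraries 22.2, 34.2 and 59.3, so 2 obese libraries lay below every lean library. RHOQ, a GTPase of insulin-stimulated glucose transport (chr3:100077101-100078200), had 10.9, 15.7 and 33.5 in lean and 0, 12.3 and 21.8 in obese libraries. GRB10, an adaptor that dampens the insulin receptor, and TBC1D1, a regulator of glucose transporter traffic, were carriers too.

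None of 26 genes of lipid storage, lipolysis and fatty acid uptake with a locus carried a losing region. Of 19 genes of lipogenesis and biotin-dependent carboxylation, 3 did, all linked to biotin: HLCS, which attaches biotin to carboxylases, at 1.69-fold, MCCC2, a subunit of a carboxylase of leucine breakdown, at 1.69-fold, and PCCA, a subunit of propionyl-CoA carboxylase, at 1.60-fold. In HLCS (chr13:210643501-210644500) the lean libraries had 9.30, 13.1 and 31.6 and the obese libraries 2.24, 8.27 and 14.3, and 6 obese libraries lay below every lean library. Among 33 genes of adipogenic and thermogenic transcription control, 4 were carriers: the receptors ESRRG (1.70-fold), NR3C1 (1.65-fold) and PPARA (1.54-fold) and the corepressor NCOR1 (1.67-fold). PPARA, which switches on fatty acid oxidation (PPARALPHA in the files, chr5:463101-464100), had 13.2, 20.4 and 22.8 in lean and 2.44, 12.97 and 22.6 in obese libraries. Its highest obese library was thus near the highest lean library, while 6 were below every lean library.

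Of the lists by function, those richest in carriers were the lists of cytoskeleton and nuclear envelope linkers, with 12 of 29, and of regulators of small GTPases, with 17 of 43. The first held the polarity protein PARD3 (2.003-fold), the motor MYO1E (1.93-fold), the linker DST (1.92-fold) and the ankyrin ANK2 (1.88-fold), and its 27 losing regions had a median ratio of 1.60-fold. The second held the exchange factors VAV3 (2.14-fold), TRIO (1.87-fold) and TIAM2 (1.83-fold) and the GTPase-activating ARHGAP24 (1.85-fold), and its 31 losing regions had a median of 1.625-fold. Both medians were below that of 1.66-fold over all losing regions. Calcium channels and calcium handling had 6 carriers of 29, among them ATP2B1 and the channel subunits CACNA1D (1.73-fold), CACNA1E (1.71-fold) and CACNA1C (1.65-fold). Cyclic nucleotide signalling had 7 of 35, with PDE10A (1.82-fold) and PDE7B (1.69-fold), which break cyclic nucleotides down, the adenylyl cyclase ADCY2 (1.77-fold) and the G protein subunit gene GNAS (1.68-fold). Cadherins, catenins and synaptic adhesion had 6 of 32, with CDH13, a receptor of adiponectin (2.19-fold), CTNNA1 (2.16-fold) and CNTN4 (1.82-fold), and axon guidance 6 of 32, with SLIT2 (1.94-fold), SEMA5A (1.87-fold) and PLXNC1 (1.66-fold). MAPK cascade genes had 6 of 37, with MAP2K4 (1.76-fold), RASGRF1 (1.75-fold), the phosphatase DUSP10 (1.75-fold) and MAP4K4 (1.72-fold), and chromatin enzymes 5 of 35, with the acetyltransferases KAT6B (1.81-fold), KAT6A (1.68-fold) and CREBBP (1.62-fold) and the remodeller CHD7 (1.56-fold). Potassium and sodium channels had 2 of 21 (SCN8A, 1.92-fold, and KCNT1, 1.54-fold), extracellular matrix and integrins 2 of 33 (COL23A1, 1.76-fold, and FBN1, 1.70-fold) and Wnt signalling 1 of 34 (FZD3, 1.47-fold). Many genes of the lists with most carriers are long, and the lists were written with earlier results of these data known, so no enrichment was tested.

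RRBS gives a second reading of methylation, at CpG-rich fragments and as means of the groups. The table that asked for 5 or more pigs with a value per group holds 610 regions, of which 1 overlapped a losing region, in EXOC2, a subunit of the exocyst that tethers secretory vesicles. There the authors' mean methylation was 40.6% in obese and 29.5% in lean pigs over 10 CpGs (chr7:87350-87483), while the captured region (chr7:87401-88800) had 17.4 in obese and 26.4 in lean pigs, so the directions were opposite. Of the gaining regions in genes, 10 overlapped an RRBS region of this table. In the table that asked for 3 or more, 3 losing regions had an RRBS region over them. MTHFD1L, a mitochondrial enzyme of folate metabolism, was lower in obese pigs in both assays, with 51.3% against 66.1% over 10 CpGs. GLTSCR1 was higher in RRBS, with 75.5% against 62.6%, and EXOC2 again, with 40.6% against 28.4%. The positions are as the file gives them, and the depth behind single RRBS values is unknown.

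RRBS regions elsewhere in carrier genes were more frequent. The first table put 38 regions in 34 carrier genes, 17 of them (44.7%) lower in obese pigs, beside 207 of all 610 (33.9%). In these 38 the median of the authors' mean methylation was 44.4% in lean pigs, and over all 610 it was 23.4%. MTOR and PPARA each held RRBS regions around CpGs for which the study gives the sequence on Sscrofa10.2, and these are shown because they are the points in both genes where the bisulfite reading and the captured fall can be set beside each other. The capitals mark the CpG, with positions from the study's table trimmed by 1 base at each end.

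MTOR intron 30, chr6:65230954-65230982: atgaaacccatctgCGcagagggaagaag

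PPARA intron 2, chr5:435041-435069: agcttgcctagtcCGtgttcatttgaatg

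PPARA intron 2, chr5:444284-444312: ggtcgggggagggcCGgggtgaggcgtca

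The MTOR site lay 34818 bases from the nearest losing region of the gene. The RRBS region around it had 58.3% in obese and 69.4% in lean pigs over 15 CpGs in the first table, a difference of -11.1 points, and 72.5% and 83.0% over 10 CpGs in the second, so both assays were lower in obese pigs in this gene. The PPARA sites lay 28031 and 18788 bases from its losing region, and the RRBS regions around them, found in the second table, were higher in obese pigs, with 85.4% against 72.9% over 12 CpGs and 35.3% against 17.3% over 14 CpGs. PPARA was thus lower in obese pigs by capture in its losing region and higher by RRBS at these places in intron 2.

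RNA was not used to choose the losing regions, so it could be tested in the carrier genes. The RNA libraries had the marks of adipocytes: 7 of the 10 adipocyte markers had a locus and summed to 1069 to 1302 FPKM in lean and 1022 to 1462 in obese pigs. FPKM values are fragments per kilobase of transcript and sequencing depth, here scaled between libraries. Leukocyte markers, 6 of 8 found, summed to 2.39 to 4.31 in lean and 1.998 to 4.79 in obese pigs, endothelial markers to 1.48 to 13.1 and 3.45 to 9.45, smooth muscle markers to 4.36 to 9.24 and 7.67 to 10.9, and fibroblast and preadipocyte markers to 225 to 672 and 244 to 617. CD163, DPP4, MYH11 and DES were under 0.1 FPKM on average. The endothelial marker KDR, a receptor of VEGF, carried 2 losing regions, and no other marker carried any. No list separated the groups. The fibroblast and preadipocyte sums were the highest after those of the adipocyte markers and differed widely between pigs. The part of these lists in the RNA results was not tested.

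Of the 1367 carrier genes, 700 (51.2%) reached a mean of 1 FPKM and were tested with limma, against 8890 of the 21691 loci of chromosomes 1 to 18 (41.0%). No carrier gene passed an adjusted p of 0.05, while 0.00976% of all 10246 genes tested, a single gene, did. The study ran cuffdiff on the RNA of these pigs and called far more transcripts at an adjusted threshold of 0.05. At an unadjusted limma p under 0.05, 86 carrier genes (12.3%) were higher in obese pigs, beside 10.5% of all genes tested, and 43 (6.14%) were lower, beside 10.3%. The share of higher genes was thus somewhat above that of all genes, and the share of lower genes was below it. The median log2 difference was 0.03 in carrier genes and 0.00 in all genes. Split by the presence of a gaining region, the 609 carriers without one had 10.8% higher and 6.73% lower, and the 91 carriers with one had 21.98% and 2.198%. Among 1258 tested genes at least as long as the median carrier and with no region of either kind, 10.3% were higher and 10.97% lower. The shares were not tested against each other.

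The carriers with the lowest limma p among those higher in obese pigs were LRRK1, a kinase related to LRRK2, the unnamed neighbours ENSSSCG00000004082 and ENSSSCG00000021273 on chromosome 1, MOCOS, which activates molybdenum enzymes, and EPS15L1, an endocytic adaptor. LRRK1 had scaled FPKM values of 0.919, 2.04, 1.13, 2.71 and 2.28 in the lean pigs and of 5.67, 4.51, 4.81, 4.66 and 6.01 in the obese pigs. All obese pigs were above all lean pigs, with a difference of 1.16 ± 0.18 (SE) on the log2 scale of the value plus 1, an unadjusted limma p of 5.9e-05 and an adjusted limma p of 0.0563. Its losing region had a ratio of 1.549-fold. ENSSSCG00000004082, with 4 losing regions, had a mean of 2.13 in lean and 5.20 in obese pigs, at an adjusted limma p of 0.0651. The groups did not overlap in any of the 5 genes, which were picked for their low p, beside 2.33% of all genes tested with all obese pigs above all lean pigs, and the exact permutation p of each was 0.00794, the smallest that 5 pigs against 5 allow in a two-sided test.

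Among those lower in obese pigs, low limma p were found for HSDL2, a peroxisomal and mitochondrial enzyme, ATP9B, a membrane ATPase, MRRF, which recycles mitochondrial ribosomes, and METTL8, which modifies mitochondrial transfer RNA. HSDL2, with 3 losing regions, had 29.7, 20.8, 76.6, 39.5 and 50.5 FPKM in the lean and 15.1, 16.9, 19.3, 17.3 and 14.1 in the obese pigs, a difference of -1.21 ± 0.29 at an adjusted limma p of 0.108. ATP9B had 3.48, 4.05, 6.11, 4.24 and 4.14 in the lean and 3.08, 2.78, 3.06, 2.54 and 2.196 in the obese pigs, at -0.52 ± 0.13 and an adjusted limma p of 0.109. The groups did not overlap in these 4 genes either, again picked for their low p, beside 1.81% of all genes tested with all obese pigs below all lean pigs, and the exact permutation p was again 0.00794. The 2 losing regions of ATP9B also overlap the locus of NFATC1, so they belong to both.

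**Figure D5:**
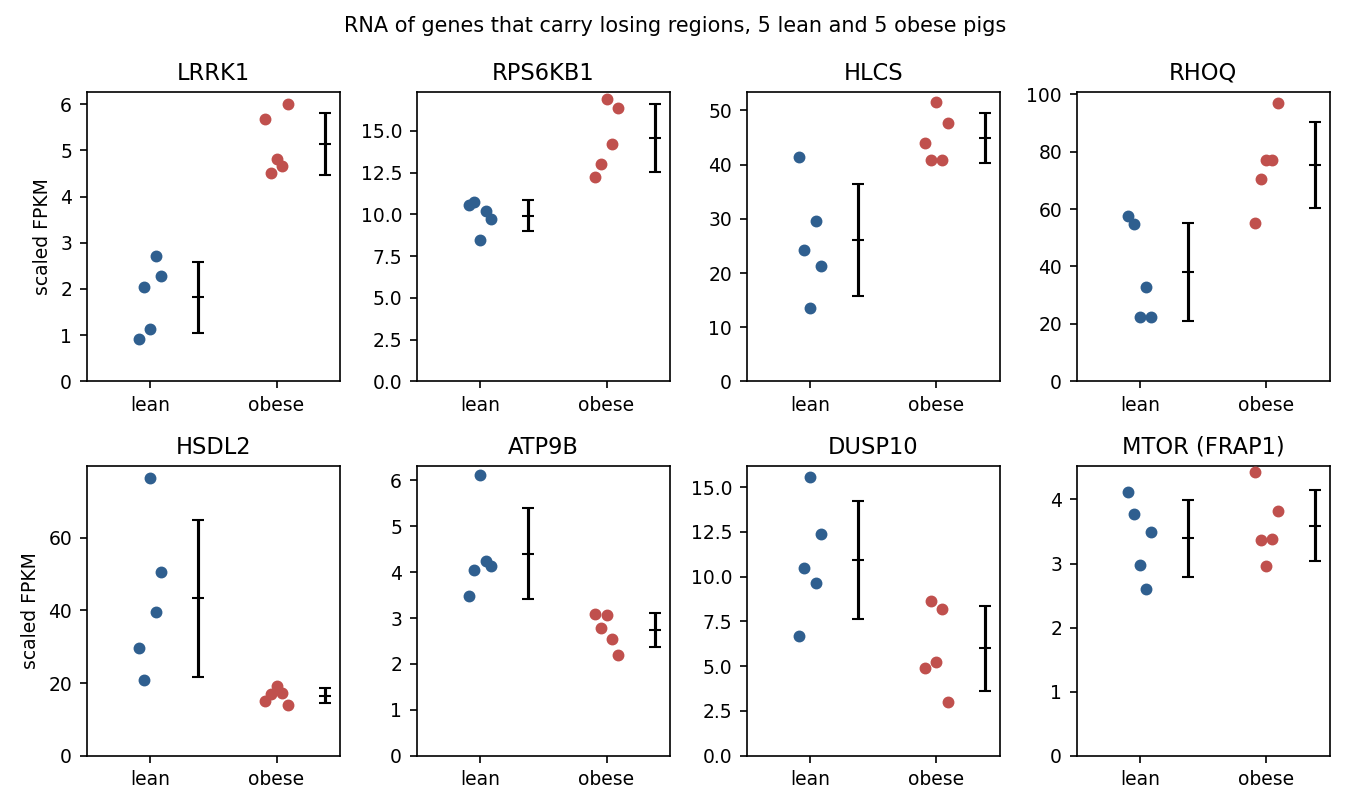
Scaled FPKM (y axis) of 5 lean (blue) and 5 obese (red) pigs, each a point, for 8 carrier genes, with the mean and SD of the group beside the points. LRRK1 and RPS6KB1 are higher and HSDL2 and ATP9B lower in all obese pigs, the groups overlap in HLCS, RHOQ, DUSP10 and MTOR, and no gene shown passed the adjusted limma threshold.

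The RNA of genes of insulin signalling that carry losing regions was looked at next. RPS6KB1 had 10.6, 10.8, 8.45, 10.17 and 9.69 FPKM in lean and 12.2, 12.99, 16.9, 14.2 and 16.4 in obese pigs, a difference of 0.50 ± 0.11 with an adjusted limma p of 0.0928 and no overlap. RHOQ had 57.4, 54.8, 22.5, 33.0 and 22.3 in lean and 55.3, 70.3, 77.1, 77.0 and 96.9 in obese pigs, at 1.06 ± 0.29 and an adjusted limma p of 0.125. MTOR had a mean of 3.39 ± 0.606 in lean and 3.59 ± 0.557 in obese pigs (SD, n = 5 each), and INSR 13.8 ± 2.26 and 14.9 ± 2.76, with adjusted limma p of 0.766 and 0.702.

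Of the 13 genes that the study correlated between methylation and RNA, 12 had a locus, and the carriers were DUSP10, HLCS, MGMT, MTOR, PPARA and RHOQ. The study chose this list on these animals, so it is no independent evidence of a direction. It also gives SYNE1 a captured intron region lower in obese pigs. No carrier bore that name here, but 127 carrier genes had no name, so its absence from the carriers is not shown. For RHOQ, HLCS and MTOR, its correlated regions include captured ones in introns that are lower in obese pigs. For DUSP10 it correlated a captured region upstream of the gene. For PPARA it used RRBS regions higher in obese pigs, and for MGMT a captured region given as higher. HLCS had 41.4, 24.3, 13.6, 29.5 and 21.3 FPKM in lean and 44.0, 40.8, 51.5, 40.8 and 47.7 in obese pigs, at 0.85 ± 0.24 and an adjusted limma p of 0.137, with 1 lean pig above 2 obese pigs. MGMT, which repairs alkylated DNA and held 2 losing and 2 gaining regions, had 19.6 ± 4.51 and 33.9 ± 9.42, at an adjusted limma p of 0.133. DUSP10 had 6.67, 10.5, 15.5, 9.65 and 12.4 in lean and 4.88, 8.65, 5.25, 8.20 and 2.98 in obese pigs, at -0.80 ± 0.27 and an adjusted limma p of 0.166. PPARA had 8.79 ± 3.50 and 11.9 ± 2.51, at an adjusted limma p of 0.293. With cuffdiff on these pigs the study called RHOQ, HLCS, MGMT and DUSP10 different. Its qPCR, which included further pigs, was significant for them in the same directions. MTOR and PPARA were not called by cuffdiff, though PPARA was significantly higher in obese pigs by qPCR.

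The genes with most losing regions were not those with the largest RNA differences. ARHGAP26 and DSCAM had means of 0.0501 and 0.00192 FPKM in lean and 0.0576 and 0.0850 in obese pigs, under the filter of 1 FPKM, so limma was not run on them. The two-sided exact permutation p, unadjusted, was 0.794 for ARHGAP26 and 0.0159 for DSCAM, whose highest pig had 0.304 FPKM and whose groups overlapped. PARK2 had 5.60 ± 1.43 in lean and 6.35 ± 1.05 in obese pigs, VPS13D 2.05 ± 0.503 and 2.42 ± 0.618, and PARN 6.27 ± 1.83 and 4.68 ± 0.544, with adjusted limma p of 0.550, 0.557 and 0.268. Of the carriers tested in the list of GTPase regulators, 3 of 9 were higher and 2 were lower at an unadjusted limma p under 0.05, and of those in the list of cytoskeleton linkers 1 of 5 was higher and 0 were lower, beside 10.5% higher and 10.3% lower of all genes tested. Among the carriers named from the remaining lists, an unadjusted limma p under 0.05 was found for CTNNA1 (0.37 ± 0.13 on the log2 scale), MAP4K4 (0.45 ± 0.17) and TRIO (0.24 ± 0.09) among those higher, and for FBN1 (-0.92 ± 0.33) and TIAM2 (-0.52 ± 0.21) among those lower, with adjusted limma p between 0.180 and 0.202. The channel genes CACNA1C, CACNA1D, CACNA1E and SCN8A had means under 0.1 FPKM in both groups, so their losing regions lie in genes with hardly any RNA in these cells.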

How the data were processed

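The authors captured methylated DNA with the MethylMiner kit, placed the reads on Sscrofa10.2 and ran diffReps on windows of 1000 bases, moved by 100. The signal deposited per group averages normalized counts over 11 libraries. Times a constant fitted close to the rounded one given for its library, every value under 30 reads lay within 0.1 of a whole read. RRBS methylation, which the authors called with Bismark 0.10 and searched for regions with metilene, was deposited as a fraction per group and is given in percent, and the authors also deposited a score per region, its number of CpGs. FPKM values came from the authors' cufflinks 2.2.0 run, per the labels. Columns of the authors' own comparisons (ratios and p-values) and the hotspot table were not used.

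The losing regions, gene lists and tests were chosen with earlier results of these data known. The capture contrast chose the regions and was given no test. FPKM values were summed per gene, divided by size factors (median of ratios, 0.693 to 1.23) and averaged over both libraries of pig-572, of which the second carries another number in its description. Genes with a mean of at least 1 FPKM were tested after adding 1 and taking log2, by limma 3.58.1 (trended eBayes, R 4.3.3) with Benjamini-Hochberg adjustment, after a check on simulated data. Single genes had two-sided exact permutation tests over 252 splits, and the genome-wide level had 100000 permutations, computed in Python 3.11.15 (pandas 2.3.3, numpy 2.4.6, scipy 1.17.1, and matplotlib 3.10.9 for figures). List symbols were matched by name and, for 16, by an older name (492 of 549 had a locus), and 127 carrier genes had no name. Named regions were the 10 with the largest ratio at a mean of at least 10, the 5 with the largest gap between the groups, the 3 longest, those at RRBS regions, the 3 on either side of the limit and those in genes of the study's correlation table. Named genes were the 5 with most losing regions, up to 4 per list with the largest ratio and the 5 with the lowest limma p in each direction. Other members of the lists are named beside them, and 1 gene that the rule names is not reported here. Depth is known for mDNAcap as reads per bin of 1000 bases, 0.44 to 4.10 in obese and 0.63 to 7.04 in lean libraries, and cannot be read from FPKM.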

Additional observations from a re-analysis of the deposited data

Results flagged for a closer look

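Of 82 groups of 5 RNA values looked at among the named carrier genes, 1 held a pig that stood far from the others. In the lean pigs, ATP9B had a highest value of 6.11 FPKM, and the next was 4.24, a gap of 0.712 of the whole range. Chance gives such a pig in about 1 of 20 groups.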

How the results depend on the processing

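The number of losing regions stayed within 1.5 times of 1752 under all 7 alternatives (1591 to 1778), as did the number of carrier genes, 1367, under the 2 that were run for it (1240 and 1318). The regions were chosen for a fall, so the rescalings had little room to change their number. The count of 4 losing regions without overlap of the groups became 1 with the genome-wide level as the scale, 0 with the median of ratios, 123 without the highest and lowest library of each group and 16 without the ninth obese library, an alternative chosen after seeing the data. The median ratio of 1.66-fold became 1.37-fold, 1.34-fold and 1.74-fold under both scalings and without that library, all 3 chosen after seeing the data. Each shift was below 0.416, the SD over obese libraries of the overall lean mean divided by the mean of the library. That SD is a spread of single libraries and does not measure the uncertainty of the median ratio.

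In RNA, 129 carrier genes had an unadjusted limma p under 0.05 and 82 on unscaled FPKM. The adjusted count over all genes was 1, and it was 0 on unscaled FPKM, 178 (14 of them carriers) when both libraries of pig-572 counted as replicates, 10 without the first of them and 5 without a filter. Leaving out 1 pig gave 86 to 164 carrier genes, of which 60 to 106 were higher and 26 to 58 lower, and 1 to 165 genes after adjustment, the highest without lean pig 1, when 11 carriers passed, among them LRRK1 and HLCS (adjusted limma p of 0.0367 and 0.0447). In each of these fits the share of higher carriers was above that of all genes and the share of lower carriers below it. Signs turned when 1 pig was left out for MTOR (-0.00107 to 0.13, lowest without lean pig 4), NCOR1 (-0.000838 to 0.14, lowest without obese pig 1) and ANK2 (-0.15 to 0.0473, highest without lean pig 4). Losing regions that overlap an RRBS region numbered 1, and 3 in the RRBS table that asked for 3 or more pigs per group. No paired analysis was possible because the lean and obese pigs are different animals, and the replicate numbers follow the order of the samples. The causes were not tested. The spread of 5 pigs and the unknown depth of FPKM and RRBS limit these counts.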
